A study of Mus musculus with 6 samples.

Results

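Kupffer nuclei of the mouse liver that carried more RNA of Marco, Cd5l, Cd163, Ms4a8a and Kcnj16 than of Il1b, Cd83, Rgs1, Tmem26 and Ksr2 numbered 3491, out of 26467 liver nuclei past the quality filter in 6 libraries. Nuclei past that filter had at least 500 genes and 1000 unique molecular identifiers (UMIs, counted RNA molecules), and under 5% of UMIs from mitochondrial genes. Macrophage nuclei were then gated by under 0.3% of UMIs from the hepatocyte genes Apob, Cps1, Abcb11 and Mat1a, at least 3 UMIs of Clec4f, Adgre1, Timd4 and Vsig4, and at most 3 UMIs of the endothelial and stellate genes Stab2, Ptprb and Reln. Of 4301 gated nuclei, 3491 had a positive score, meaning that the UMIs of the 5 Kupffer genes exceeded those of the 5 Il1b-side genes. Another 593 had a negative score and 217 had equal sums. The positive ones are called member nuclei below.

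The libraries came from livers of 18-week-old male C57BL/6JBomTac mice on chow, fasted for 12 hours. In 3 knockout mice Plvap was deleted in hepatic stellate cells with a Cre transgene driven by Lrat, and 3 littermate controls were the comparison. The source label gives the allele and transgene designation Plvaptm1.1Salm-Tg(Lrat-cre)1Rshw for both groups, and neither the Cre status of controls nor the deleted exons could be learned from them. Each library has its own number in the labels, which do not say that each is a separate animal, so p-values measure the spread between libraries.

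Kupffer cells are the resident macrophages of the liver sinusoids. They clear bacteria, modified lipoproteins, haemoglobin complexes and aged red cells from portal blood through scavenger receptors, and they return iron to the circulation. Their identity is maintained by signals from the neighbouring endothelial cells, stellate cells and hepatocytes. The comparison asks whether losing Plvap in stellate cells changed the RNA of these macrophages.

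Member nuclei held 543, 430 and 674 nuclei in knockouts 1, 2 and 3, against 609, 700 and 535 in controls 1, 2 and 3. Their UMIs per mouse summed to between 2149199 and 3569477. The median UMIs per member nucleus were 4060.0, 4880.0 and 5143 in knockouts, against 3996, 4635 and 4869 in controls. A doublet caller marked between 0% and 1.78% of members per library, and 77 barcodes occurred in more than 1 library. The libraries of knockout 2 and control 1 had been seen to stand apart in their hepatocytes, which were not analysed here, so main results are also given without both.

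The 5 Kupffer-side genes have the following roles. Cd163 encodes the scavenger receptor for haemoglobin bound to haptoglobin, Marco a collagenous scavenger receptor for bacteria and particles, and Cd5l a secreted protein of tissue macrophages. Kcnj16 encodes an inwardly rectifying potassium channel subunit, and Ms4a8a a membrane protein of the tetraspanning MS4A family. In the mm10 build with GENCODE M21 annotation the genes lie at chr6:124304656-124330527 (Cd163), chr1:120474538-120505024 (Marco), chr3:87357881-87371073 (Cd5l), chr11:110968033-111027968 (Kcnj16) and chr19:11067471-11081102 (Ms4a8a).

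The promoters of 4 of these genes are shown because the score that defines the nuclei counts their RNA, though in unequal parts. Each runs from 250 bases before to 50 bases after the annotated start, from RefSeq in build GRCm38.p6, in the gene's own 5′ to 3′ direction. Capitals mark matches, on either strand, of the core bound by the macrophage factor PU.1 (GAGGAAG), of a MAF recognition element core (TGCTGA) and of the glucocorticoid receptor site core (AGAACA). The windows are chr1:120504975-120505274 on the minus strand (Marco), chr3:87357631-87357930 on the plus strand (Cd5l), chr6:124304401-124304700 on the plus strand (Cd163) and chr19:11081054-11081353 on the minus strand (Ms4a8a).
Marco: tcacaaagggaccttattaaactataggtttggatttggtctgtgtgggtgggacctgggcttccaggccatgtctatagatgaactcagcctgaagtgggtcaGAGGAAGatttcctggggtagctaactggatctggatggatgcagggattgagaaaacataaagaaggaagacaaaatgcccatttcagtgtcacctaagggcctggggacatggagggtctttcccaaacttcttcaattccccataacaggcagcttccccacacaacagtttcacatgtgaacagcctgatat
Cd5l: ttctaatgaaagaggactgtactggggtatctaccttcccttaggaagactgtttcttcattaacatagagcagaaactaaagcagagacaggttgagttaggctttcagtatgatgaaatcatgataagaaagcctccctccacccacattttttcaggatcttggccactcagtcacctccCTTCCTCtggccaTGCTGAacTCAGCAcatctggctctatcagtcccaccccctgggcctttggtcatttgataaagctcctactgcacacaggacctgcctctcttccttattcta
Cd163: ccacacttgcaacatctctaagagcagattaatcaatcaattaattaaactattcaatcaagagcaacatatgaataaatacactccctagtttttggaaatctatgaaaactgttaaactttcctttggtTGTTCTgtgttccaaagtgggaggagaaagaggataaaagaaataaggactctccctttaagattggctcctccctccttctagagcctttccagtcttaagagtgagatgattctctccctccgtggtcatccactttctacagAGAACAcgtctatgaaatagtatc
Ms4a8a: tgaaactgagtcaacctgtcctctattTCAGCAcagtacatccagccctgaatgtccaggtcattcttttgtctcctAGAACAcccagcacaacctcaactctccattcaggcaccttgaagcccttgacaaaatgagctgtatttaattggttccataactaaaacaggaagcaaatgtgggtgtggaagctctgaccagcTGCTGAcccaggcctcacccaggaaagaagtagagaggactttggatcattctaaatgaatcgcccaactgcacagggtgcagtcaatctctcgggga

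All 5 genes matched the promoter table, with 8 windows among them. Windows of Kcnj16 are not shown and also held matches of TGCTGA. The window of Marco held 1 match of GAGGAAG and that of Cd5l held 1 match of GAGGAAG and 2 of TGCTGA. The window of Cd163 held 2 matches of AGAACA, at 119 bases before and 26 after the start. That of Ms4a8a held 2 matches of TGCTGA and 1 of AGAACA. These are common strings: of 32851 promoter windows of the same length, 13.6% held GAGGAAG, 19.5% held TGCTGA and 19.0% held AGAACA, so a match describes letters and no site.

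The level of each defining gene chose the nuclei, so the following is a description without tests. Levels are counts scaled to a common total of UMIs (CPM) of the summed member nuclei of a mouse. Cd5l stood at 1801, 1210.2 and 3048 CPM in knockouts 1 to 3, against 1265, 1559 and 1487 CPM in controls 1 to 3. Cd163 stood at 1149, 1447 and 2043 CPM in knockouts, against 1281, 2054 and 2025 CPM in controls. The groups overlapped for both genes, and knockout 3 held the highest Cd5l level of the 6 mice.

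Kcnj16 stood at 438, 546 and 1013 CPM in knockouts, against 587, 954 and 811 CPM in controls. Ms4a8a stood at 227, 184 and 382 CPM in knockouts, against 123, 320.1 and 255 CPM in controls. For both genes knockout 3 was the highest mouse. Knockouts 1 and 2 lay below all controls for Kcnj16 and within the range of the controls for Ms4a8a. Marco stood at 88.8, 25.6 and 231 CPM in knockouts, against 37.2, 60.3 and 66.2 CPM in controls. The knockouts held both the highest and the lowest Marco level of the 6 mice.

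Marco was detected in a minority of these nuclei. Members of a mouse averaged 0.13 to 1.22 Marco UMIs, so a nucleus without one may still express the gene. A Marco UMI was found in 9.58%, 6.51% and 32.3% of member nuclei in knockouts, against 9.85%, 13.4% and 16.4% in controls. In the nuclei outside the macrophage gate, at median depths of 4294 to 4579 UMIs in knockouts and 4220.0 to 5616 in controls, the share was 0.80%, 0.819% and 3.55% in knockouts, against 0.955%, 1.22% and 1.68% in controls. Those nuclei include macrophages that failed the gate. Cut to 1500 UMIs each, 6.53%, 3.77% and 18.3% of member nuclei kept a Marco UMI in knockouts, against 4.26%, 5.27% and 6.78% in controls. Knockout 3 was the highest mouse inside and outside the gate.

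Cd5l and Cd163 carried the score instead. Of the UMIs of the 5 Kupffer-side genes, Cd5l gave 48.6%, 35.5% and 45.4% in knockouts and 38.4%, 31.5% and 32.0% in controls. Cd163 gave 31.0%, 42.4% and 30.4% in knockouts and 38.9%, 41.5% and 43.6% in controls, while Marco gave between 0.75% and 3.44%. Kcnj16 gave between 11.8% and 19.3%, and Ms4a8a between 3.73% and 6.47%. A Cd5l UMI was found in 92.7% to 99.3% of the members of a mouse, and a Cd163 UMI in 78.5% to 91.0%.

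Clec4f, the Kupffer cell C-type lectin, is one of the 4 genes whose UMIs admitted nuclei to the gate, so its level only describes the selection. It stood at 3684, 3561 and 5157 CPM in knockouts against 3055, 4156 and 3999.9 CPM in controls. Genes of monocyte-derived and lipid-associated macrophages, used by neither gate nor score, were present at unequal levels. Ccr2, the receptor that recruits monocytes, stood at 6.80, 7.91 and 8.68 CPM in knockouts against 1.92, 8.08 and 4.70 CPM in controls. Ly6c2 and Chil3, both of monocytes, did not exceed 2.52 CPM in any mouse. Itgal, an integrin of leukocytes, stood at 418, 440.2 and 330 CPM in knockouts against 379, 301 and 315 CPM in controls, and Lgals3, a lectin of many macrophages, at 250.2, 170 and 168 CPM in knockouts against 146, 164 and 165 CPM in controls. The 20 genes of this list summed to 751 to 845 CPM in knockouts and 676 to 703 CPM in controls, against 712 to 1081 CPM in Il1b-side nuclei. Summed stellate markers stood at 217 to 292 CPM in knockouts and 205 to 282 CPM in controls, against 4889.6 to 5979 CPM in nuclei outside the gate of all mice. Summed endothelial markers stood at 603 to 777 CPM in knockouts and 540 to 920 CPM in controls. Outside the gate they stood at 4627 to 7075 CPM. Stab2, which the gate allowed at a few UMIs, had a UMI in 57.1% to 65.4% of the members of a mouse.

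Members and Il1b-side nuclei were cut from a continuous score. The median score of members was 9, 8 and 28 in knockouts, against 7, 17 and 16 in controls. Scores of 10 or more were reached by 45.7%, 40.2% and 91.8% of members in knockouts, against 32.2%, 74.4% and 70.1% in controls. Knockout 3 had the highest and control 1 the lowest median score, and each group held mice of low and of high scores.

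Near the threshold, 35, 20 and 6 members had a score of exactly 1 in knockouts, against 54, 23 and 12 in controls. Just outside it, 44, 32 and 17 gated nuclei had equal sums in knockouts, against 56, 54 and 14 in controls. A further 23, 28 and 2 nuclei stood at -1 in knockouts, against 33, 19 and 11 in controls. The threshold cuts a range of scores, and whether its sides hold separate types of macrophage was not tested. The make-up of the Il1b side also differed by mouse. Timd4, a gate gene, had a UMI in 28.6% of Il1b-side nuclei against 72% of members in control 2. In knockout 1 these shares were 84.2% and 84.9%. Ksr2, a scaffold kinase gene counted on the Il1b side, still had a UMI in 73.9% to 83.6% of members.

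**Figure D1:**
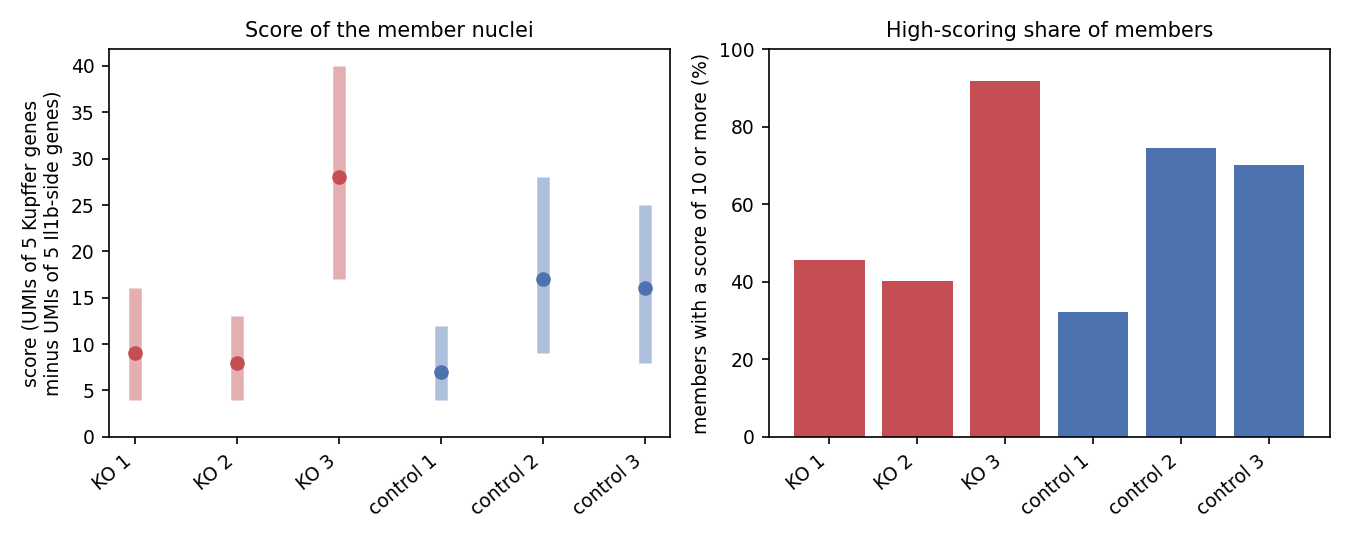
Left: score of the member nuclei by mouse (UMIs of the 5 Kupffer-side genes minus UMIs of the 5 Il1b-side genes), points for the median and bars for the middle 50% of nuclei, knockouts (KO) in red and controls in blue. Right: percent of members with a score of 10 or more. Knockout 3 is highest at 91.8% and control 1 lowest at 32.2%.

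**Figure D2:**
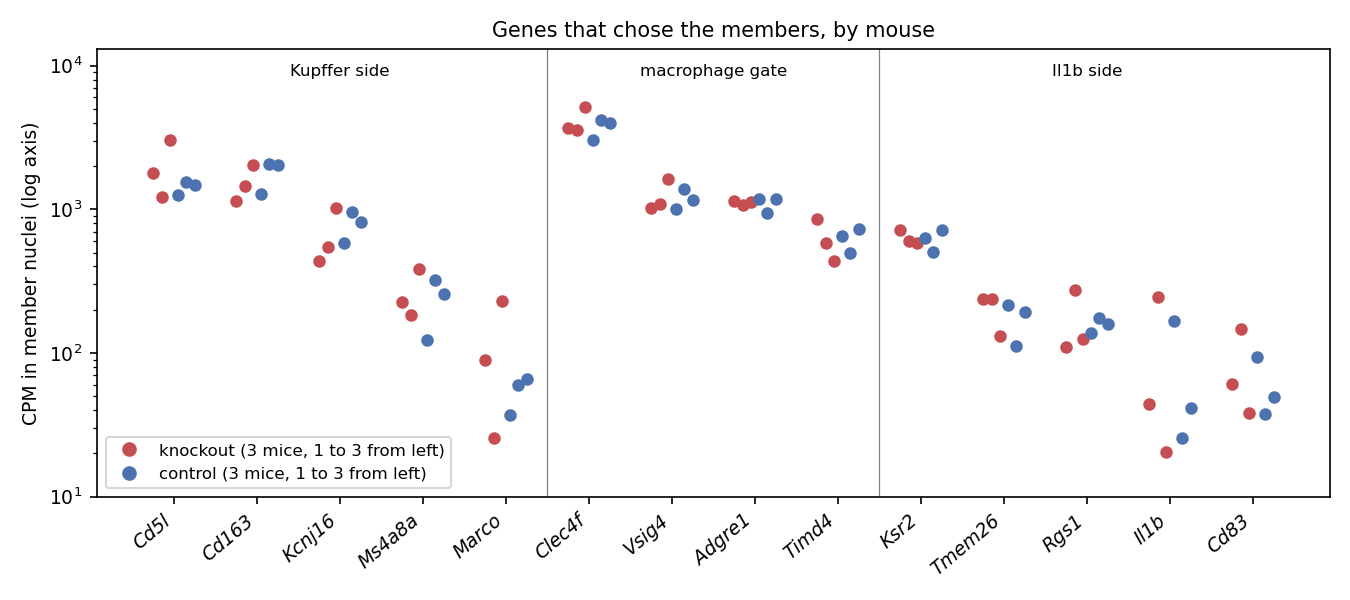
CPM in member nuclei (log axis) of the genes that chose them, 1 point per mouse, knockouts 1 to 3 in red and then controls 1 to 3 in blue. Il1b spans 20.5 to 245 CPM, and both groups hold high and low mice.

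The Il1b side also varied by mouse within the members. Il1b, the cytokine gene, stood at 44.2, 245 and 20.5 CPM in knockouts, against 167, 25.4 and 41.6 CPM in controls. Cd83, an activation marker of antigen-presenting cells, stood at 60.7, 147 and 38.4 CPM in knockouts, against 94.0, 37.8 and 49.6 CPM in controls. Knockout 2 and control 1 were the 2 highest mice for both genes.

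The share of macrophage nuclei in the member state did not separate the groups. Members made up 78.9%, 64.8% and 96.1% of gated nuclei in knockouts, against 69.4%, 87.9% and 93.0% in controls. The means were 79.9% ± 15.7 in knockouts and 83.5% ± 12.4 in controls (SD, n = 3 each). The difference of -3.53 percentage points had p = 0.8 in a two-sided exact permutation test, in a design whose smallest p is 0.1. Adjusted by Benjamini-Hochberg over 6 measures, the p of this test was 0.9. The measures were 3 shares and the median score, UMIs and genes of members. The median score is made of the genes that chose the nuclei, so it only entered the adjustment and its own test is not read. Without knockout 2 the difference was 4.06 points, and without control 3 it was 1.25, so its direction rested on single mice. Without knockout 2 and control 1 together it was -2.96 points.

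As a share of all nuclei past the quality filter, members were 11.9%, 10.2% and 16.4% in knockouts, against 11.8%, 14.5% and 14.8% in controls. The means were 12.8% ± 3.19 in knockouts and 13.7% ± 1.69 in controls (SD, n = 3 each; exact permutation p = 0.9, adjusted p = 0.9). The difference was -0.872 percentage points, and 0.436 without knockout 2. With every nucleus cut to 1500 UMIs and the macrophage gate lowered to 2 UMIs, members were 71.9%, 56.5% and 95.3% of gated nuclei in knockouts, against 61.9%, 86.3% and 87.4% in controls.

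Genes outside the rule described the member nuclei further. The ratios below are medians over the 6 mice of the log2 ratio of CPM + 1 within a mouse, given as description without a test, since the nuclei were selected on related genes. Against all nuclei outside the gate, Gbp2b, an interferon-inducible GTPase, averaged 227 CPM in members and 7.20 CPM in the others (log2 ratio 4.85, 4.39 to 5.09 over mice). Pcolce2, an enhancer of procollagen processing, averaged 283 and 9.11 CPM (4.85), and Kcnk13, a potassium channel found in microglia, averaged 644 and 24.4 CPM (4.69). Other genes among the 12 highest were Klra2, Cd300lf, Lilra5 and Lilr4b, which encode immune receptors of the cell surface, with log2 ratios of 4.61 to 4.68. Klra2 stood at 733, 757 and 652 CPM in knockouts, against 805, 913 and 873 CPM in controls, so all knockouts were below all controls. Lilr4b stood at 847, 539 and 515 CPM in knockouts, against 358, 393 and 376 CPM in controls, so all knockouts were above all controls. Of all genes tested, 3.2% lay lower and 5.15% higher in this way, and no gene passed the main knockout comparison given below. Cd300lf and Lilra5 overlapped between the groups, and Cd300lf ranged from 265 to 381 CPM in knockouts and from 191 to 350.1 CPM in controls.

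Against the Il1b-side nuclei of the same mouse, the 12 genes with the highest ratios included the following. Hmox1, which degrades heme, averaged 157 CPM in members and 76.3 CPM in Il1b-side nuclei. Ncoa4, the receptor that delivers ferritin to lysosomes, had a median log2 ratio of 0.91. Siglec1, a sialic acid receptor of resident macrophages, averaged 212 and 116 CPM. Lpl, lipoprotein lipase, averaged 116 and 45.2 CPM. Median log2 ratios of these 4 genes were 0.71 to 1.26. The Il1b-side sum of knockout 3 rests on 10 nuclei, that of control 3 on 26 and that of control 2 on 42, so single ratios reached from 0.05 to 7.95.

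Genes lower in members than in Il1b-side nuclei included Ccr2, with a median log2 ratio of -2.51. In Il1b-side nuclei it stood at 22.3, 12.0 and 89.0 CPM in knockouts, against 9.81, 247 and 49.1 CPM in controls, so it was highest in knockout 3, control 2 and control 3, the mice with the fewest such nuclei. H2-Eb1, a class II antigen-presenting chain, averaged 59.2 and 226 CPM (-1.70), and it too was highest in the Il1b-side nuclei of those mice. Bcl2a1b, an inhibitor of cell death, averaged 41.5 and 118 CPM (-1.58). Arhgap22, a GTPase-activating protein for Rac, had a median log2 ratio of -1.47. Its level in Il1b-side nuclei was 136, 90.3 and 498 CPM in knockouts, against 116, 1086 and 278 CPM in controls, again highest in those mice.

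Lpl and Arhgap22 were named above by ratios across the score, and members were then split by the same score. Their direction in this split is therefore a description and no separate support. Members with a score of 10 or more were set against members with a score of 1 to 9 in each mouse. The first had median depths of 4882 to 5315 UMIs and the second of 2987 to 4490.0 UMIs. Nuclei with a score of 1 to 9 numbered 295, 257 and 55 in knockouts, against 413, 179 and 160 in controls. Lpl was higher in the high-scoring nuclei of 6 of 6 mice (median log2 ratio 1.26). In nuclei with a score of 10 or more it stood at 192, 90.8 and 303 CPM in knockouts, against 87.1, 55.2 and 79 CPM in controls. With a score of 1 to 9 it stood at 67.6, 67.8 and 61.6 CPM in knockouts, against 62.3, 18.2 and 38.5 CPM in controls. Slc40a1, the iron exporter ferroportin, was higher in the high-scoring nuclei of 6 of 6 mice (median 0.38), and Arhgap22 was lower in 6 of 6 (median -1.13). These genes were picked from the listed and profile genes after their values were seen. Alb, a hepatocyte transcript, was also lower in the high-scoring nuclei of 6 of 6 mice (median -0.39), and the part of depth and free RNA in these ratios was not tested.

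Mice also differed in genes outside the rule. Among 3790 genes outside the rule with a mean of at least 50 CPM in members, the median standard deviation over the 6 mice was 0.16 on the log2 scale. Fkbp5, a co-chaperone induced by glucocorticoids that restrains the glucocorticoid receptor, had a standard deviation of 1.58. It stood at 593, 365 and 2278 CPM in knockouts, against 221, 2596 and 2512 CPM in controls. Knockout 3 and controls 2 and 3 were high, the other 3 mice were low, and the groups overlapped. Its log2 fold change of knockout over control was -0.75 (SE 1.19, edgeR quasi-likelihood test, adjusted p = 0.999).

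The same 3 mice were high in Fkbp5 in other nuclei of their libraries. In Il1b-side nuclei it stood at 477, 275 and 1495 CPM in knockouts, against 214, 2530.1 and 2003 CPM in controls. In nuclei outside the gate it stood at 476, 250.4 and 1062 CPM in knockouts, against 216, 1174 and 964 CPM in controls. Knockouts 1 and 2 and control 1 were low in each class of nuclei.

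The 3 mice with high Fkbp5 were also those with the highest median scores, 28 in knockout 3 and 17 and 16 in controls 2 and 3, against 9 and 8 in knockouts 1 and 2 and 7 in control 1. Within a mouse, however, Fkbp5 differed little with the score. In members with a score of 10 or more it stood at 588, 381 and 2275 CPM in knockouts, against 195, 2606 and 2549.7 CPM in controls. With a score of 1 to 9 it stood at 597, 353 and 2326 CPM in knockouts, against 238, 2555 and 2390.2 CPM in controls. The median log2 ratio was 0.0036, with 3 of 6 mice higher in the high-scoring nuclei. The difference among mice was thus present at both ends of the score.

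**Figure D3:**
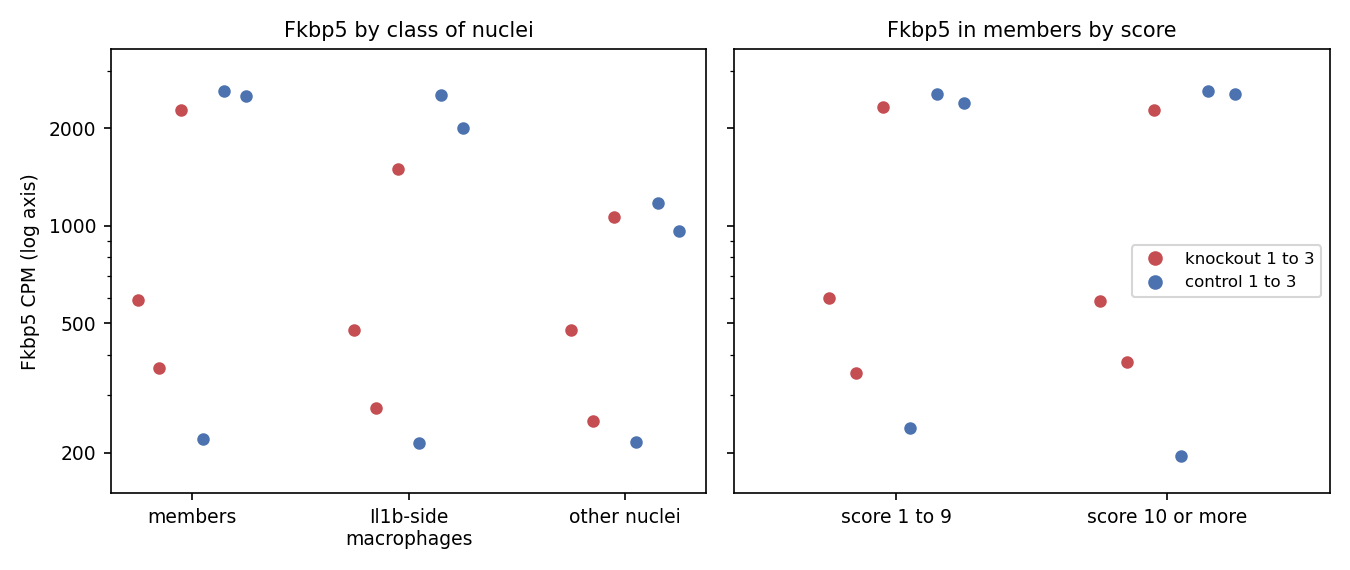
Fkbp5 CPM (log axis), 1 point per mouse, knockouts 1 to 3 in red and then controls 1 to 3 in blue. Left: members, Il1b-side macrophages and nuclei outside the gate. Right: members with a score of 1 to 9 and of 10 or more. Knockout 3 and controls 2 and 3 are highest in every column.

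Other genes with a large spread over mice ran in the same or the opposite order. Ddit4, a stress-induced inhibitor of mTORC1, stood at 11, 9.77 and 93.0 CPM in knockouts, against 11.9, 111 and 75.6 CPM in controls. Vcam1, an adhesion receptor, stood at 354, 324 and 1009 CPM in knockouts, against 289.7, 1165 and 1193 CPM in controls. Knockout 3 and controls 2 and 3 were again the 3 highest mice for both. Klf9 and Tsc22d3, also induced by glucocorticoids, ranged more narrowly: Klf9 stood at 95.6, 83.8 and 191 CPM in knockouts, against 57.2, 218 and 191 CPM in controls.

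Genes in the opposite order were highest in knockout 2 and control 1. Fosl2, an AP-1 subunit, stood at 33.1, 124 and 11.2 CPM in knockouts, against 92.9, 23.4 and 18.4 CPM in controls. Tgm2, tissue transglutaminase, stood at 93.0, 293 and 48.7 CPM in knockouts, against 241, 74.4 and 67.6 CPM in controls. Got1, the cytosolic aspartate aminotransferase, had the largest standard deviation of the 3790 genes, 1.67, at 55.2, 251 and 16.0 CPM in knockouts, against 169, 19.9 and 21.0 CPM in controls. These genes were chosen for their spread over mice, after their values were seen, and none of them separated the groups. The labels give no batch, hour of collection or hormone level, so what moved with the mice was not tested.

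Knockout and control member nuclei were compared on counts summed per mouse with edgeR's quasi-likelihood test over 11623 genes. No gene passed an adjusted p of 0.05 (0 of 11623, 0% called), and 338 genes, 2.91%, had an unadjusted p under 0.05. Of those 338, 202 were higher (1.74% of genes tested) and 136 lower (1.17%) in knockouts. DESeq2 called 5 genes (0.043%) on the same sums, and edgeR called 2, Mup17 and Mup18, without knockout 2 and control 1 together. The 3 knockouts lay above the 3 controls for 599 genes (5.15%) and below them for 372 (3.2%), together 971 genes whose groups did not overlap (8.35%). Over all genes tested, 49.7% had a log2 fold change above 0 and 50.3% below. All values named from this comparison below did not pass the edgeR threshold.

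Plvap, the targeted gene, encodes the diaphragm protein of endothelial fenestrae and was too sparse in member nuclei to be tested. It had 5, 7 and 7 UMIs in knockouts, against 7, 16 and 11 UMIs in controls. In nuclei outside the gate it stood at 42.0, 30.1 and 25.6 CPM in knockouts, against 42.1, 42.9 and 35.4 CPM in controls. The groups overlapped there through knockout 1, and those nuclei mix stellate cells with endothelial cells in which the gene was not targeted. The deletion therefore cannot be read from these nuclei.

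Alb, serum albumin of hepatocytes, had the smallest p-value. It stood at 529, 614 and 747 CPM in knockouts, against 285, 306 and 299 CPM in controls. All 3 knockouts lay above all 3 controls, with a log2 fold change of 1.07 (SE 0.14, edgeR adjusted p = 0.157). DESeq2 called it with an adjusted p of 2.1e-06, and the adjusted p of the other alternatives ran from 2.52e-12 without the filter on low counts to 1.00 without control 3. Without knockout 2 and control 1 together the log2 fold change of Alb was 1.05.

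Alb was likewise higher outside the macrophage gate, at 2579, 2810.0 and 3364 CPM in knockouts, against 1630.0, 1651 and 1943 CPM in controls. In the counts over gene lists, higher and lower mean a log2 fold change of knockout over control above or below 0. Of 21 hepatocyte transcripts tested in members, 16 were higher and 5 lower (median log2 fold change 0.21, against -0.0013 over all genes). Their summed level was 2868 to 3891 CPM in knockouts and 2466 to 2999 CPM in controls, and none of the 21 was at 0 in all mice. The major urinary protein gene Mup18 ran the other way, at 11.9, 19.1 and 10.1 CPM in knockouts, against 20.7, 48.7 and 47.0 CPM in controls (log2 fold change -1.57, SE 0.38, edgeR adjusted p = 0.999). DESeq2 also called Mup18, its paralog Mup17, Orm2 and 2610035D17Rik, all lower, and reads of the near-identical Mup genes may be split between copies. The part of free hepatocyte RNA in these values was not tested.

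Antigen presentation had the highest median of the 15 lists of gene functions. Class II genes display peptides of ingested proteins to helper T cells: H2-Aa and H2-Ab1 form the I-A receptor, H2-Eb1 is the beta chain of I-E, and Cd74 is the invariant chain that guides them. The list adds costimulatory and inhibitory ligands of T cells. Of its 12 genes tested, 10 were higher and 2 lower, with a median log2 fold change of 0.35, against -0.0013 over all genes. An unadjusted p under 0.05 was reached by 5 of the 12, all higher, beside 1.74% of all genes, and 4 of the 12 lay higher without overlap, beside 5.15% of all genes. None passed the adjusted threshold.

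H2-Aa stood at 80.7, 97.2 and 98.1 CPM in knockouts, against 54.1, 45.9 and 56.4 CPM in controls. All 3 knockouts lay above all 3 controls (log2 fold change 0.80, SE 0.15, edgeR adjusted p = 0.931, and 0.00124 to 1.00 over the alternatives). Without knockout 2 and control 1 together the log2 fold change of H2-Aa was 0.79. Cd74 stood at 282, 353 and 339.5 CPM in knockouts, against 249, 188 and 239 CPM in controls (log2 fold change 0.51, SE 0.14, edgeR adjusted p = 0.999). These groups did not overlap either.

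H2-Ab1 stood at 63.3, 109 and 83.5 CPM in knockouts, against 44.9, 45.9 and 65.5 CPM in controls. H2-Eb1 stood at 58.2, 90.7 and 70.3 CPM in knockouts, against 38.0, 38.6 and 59.3 CPM in controls. For both chains knockout 1 lay below control 3. Cd274, which encodes the T cell inhibitory ligand PD-L1, stood at 112, 118 and 95.3 CPM in knockouts, against 87.9, 46.7 and 69.5 CPM in controls, without overlap. Ciita, the coactivator that switches class II genes on, overlapped fully, at 45.4, 65.6 and 24.9 CPM in knockouts against 56.8, 33.7 and 30.4 CPM in controls.

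The promoter of H2-Aa is shown because class II genes share a conserved promoter module. Capitals mark its Y box, searched as CTGATTGG on either strand and held by 4.10% of the 32851 windows. The window is chr17:34287774-34288073 on the minus strand of GRCm38.p6, from RefSeq, and the match begins 51 bases before the start.
H2-Aa: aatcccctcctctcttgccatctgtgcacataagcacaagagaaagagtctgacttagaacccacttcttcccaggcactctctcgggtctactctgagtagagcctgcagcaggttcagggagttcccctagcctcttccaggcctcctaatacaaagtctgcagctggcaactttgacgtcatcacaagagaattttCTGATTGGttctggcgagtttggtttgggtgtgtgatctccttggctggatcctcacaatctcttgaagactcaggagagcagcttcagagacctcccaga

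Class II levels differed with the score, so they are also given within score ranges. These ranges are parts of the nuclei compared above, so the values are a description and no separate support. With a score of 10 or more, H2-Aa stood at 67.5, 85.6 and 93.2 CPM in knockouts, against 47.4, 33.1 and 50.6 CPM in controls, without overlap. With a score of 1 to 9 it stood at 96.3, 107 and 191 CPM in knockouts, against 58.5, 99.9 and 75.4 CPM in controls, and knockout 1 lay below control 2. The value of knockout 3 in this range rests on 55 nuclei, the fewest of the 6 mice. H2-Aa and Cd74 were lower in the high-scoring nuclei of 6 of 6 mice, with median log2 ratios of -0.54 and -0.40. In Il1b-side nuclei H2-Aa overlapped between groups, at 148, 152 and 712 CPM in knockouts against 55.6, 323 and 204 CPM in controls.

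Markers of other antigen-presenting cells were measured beside these values. Of 6 B cell markers tested, 4 were higher and 2 lower, and their median log2 fold change, 0.38, exceeded that of the antigen presentation list. Cd79a of B cells stood at 2.97, 1.86 and 6.72 CPM in knockouts, against 0.767, 2.31 and 2.89 CPM in controls. Ebf1, a B cell factor, stood at 10.2, 13 and 45.4 CPM in knockouts, against 0.767, 12.4 and 14.5 CPM in controls. Of the dendritic cell list, 7 genes were tested, 3 being higher and 4 lower (median -0.31), and Flt3 and Xcr1 did not exceed 6.87 CPM in any mouse. Summed B cell markers stood at 1203 to 1652 CPM in knockouts and 1478 to 1622 CPM in controls, most of it from Bank1, at 1305, 1567 and 1063 CPM in knockouts against 1566, 1359.6 and 1481 CPM in controls. Summed dendritic markers stood at 576 to 606 CPM in knockouts and 653 to 658 CPM in controls. None of these tested markers was at 0 in all mice. The part of such cells or their RNA in the class II values was not tested.

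**Figure D4:**
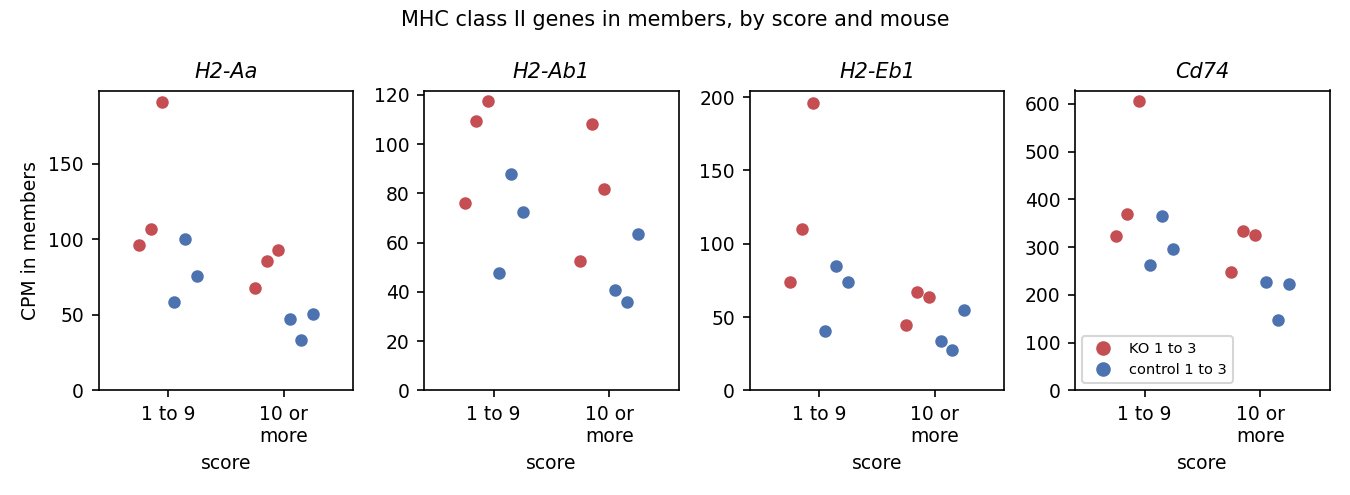
CPM of 4 class II genes in member nuclei with a score of 1 to 9 and of 10 or more, 1 point per mouse, knockouts 1 to 3 in red and then controls 1 to 3 in blue. For H2-Aa the high-scoring nuclei of knockouts stand at 67.5 to 93.2 CPM and those of controls at 33.1 to 50.6 CPM.

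Genes of Kupffer identity showed a median near that of all genes. Of 26 tested, 15 were higher and 11 lower, with a median log2 fold change of 0.04. Unadjusted p-values under 0.05 were reached by 2 of the 26, Folr2 and Lyve1, both higher, beside 1.74% of all genes tested. Folr2, a folate receptor of resident macrophages, stood at 87.9, 94.0 and 86.3 CPM in knockouts, against 79.8, 62.6 and 64.0 CPM in controls (log2 fold change 0.36, SE 0.13, edgeR adjusted p = 0.999). Slc40a1, the ferroportin gene, overlapped, at 2383, 1893 and 2379.6 CPM in knockouts against 2257, 2296 and 2441 CPM in controls. C6, a complement component made by Kupffer cells, stood at 1346, 1042 and 1836 CPM in knockouts against 1247, 1731 and 1691 CPM in controls.

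Among 19 lineage regulators tested, 10 were higher and 9 lower (median log2 fold change 0.01). Zeb2, a factor that maintains resident macrophages, stood at 5277, 5515 and 4643 CPM in knockouts, against 5204, 4381 and 4178 CPM in controls. Klf2, a factor that restrains inflammatory genes, stood at 165, 159.6 and 129 CPM in knockouts, against 98.2, 127 and 112 CPM in controls, without overlap (log2 fold change 0.40, SE 0.14, edgeR adjusted p = 0.999). Of 22 genes for receptors and mediators of niche signals, 6 were higher and 16 lower (median -0.05), and none had a p under 0.05. Tgfbr1, a TGF-beta receptor, stood at 296, 236 and 325 CPM in knockouts, against 277, 494 and 322 CPM in controls.

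Clearance functions had medians near that of all genes. Of 24 scavenger and phagocytic genes 10 were higher and 14 lower (median -0.06). Mertk, the receptor for engulfing dying cells, stood at 2837, 2293 and 3805 CPM in knockouts, against 2397, 3770.3 and 3723 CPM in controls. Of 23 iron and heme genes 14 were higher and 9 lower (median 0.03). Of 14 complement genes 8 were higher and 6 lower (median 0.07).

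Of 25 lysosomal and lipid genes, 12 were higher and 13 lower (median -0.02). Lpl, lipoprotein lipase, had the highest log2 fold change of that list, 1.41 (SE 0.51, edgeR adjusted p = 0.999). It stood at 135, 78.2 and 291 CPM in knockouts, against 72.1, 48.2 and 69.5 CPM in controls. The groups did not overlap, and without knockout 3 the log2 fold change was 0.74. Of 26 genes of fatty acid use and the fasting response, 11 were higher and 15 lower (median -0.02), and of 13 cholesterol synthesis genes 10 were higher and 3 lower (median 0.15).

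Inflammatory and interferon genes had medians slightly above that of all genes. Of 29 interferon-response genes 19 were higher and 10 lower (median 0.10). Only 1 of the 29, Irf7, had a p under 0.05, and it was higher, beside 1.74% of all genes tested. Of 24 inflammatory genes 14 were higher and 10 lower (median 0.05). An unadjusted p under 0.05 was reached by 2 of the 24, both higher, beside 1.74% of all genes. Il10, the anti-inflammatory cytokine, had few counts, at 3.40, 9.31 and 14.6 CPM in knockouts against 1.92, 2.31 and 5.43 CPM in controls. The groups overlapped. Its log2 fold change was 0.94 to 2.11 over the 14 alternatives that held it, none passing the adjusted threshold. Of 17 immediate early genes 12 were higher and 5 lower (median 0.12), and 4 of 11 cell cycle genes were higher and 7 lower (median -0.16). Of 11 genes of recruited and lipid-associated macrophages 6 were higher and 5 lower (median 0.07).

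**Figure D5:**
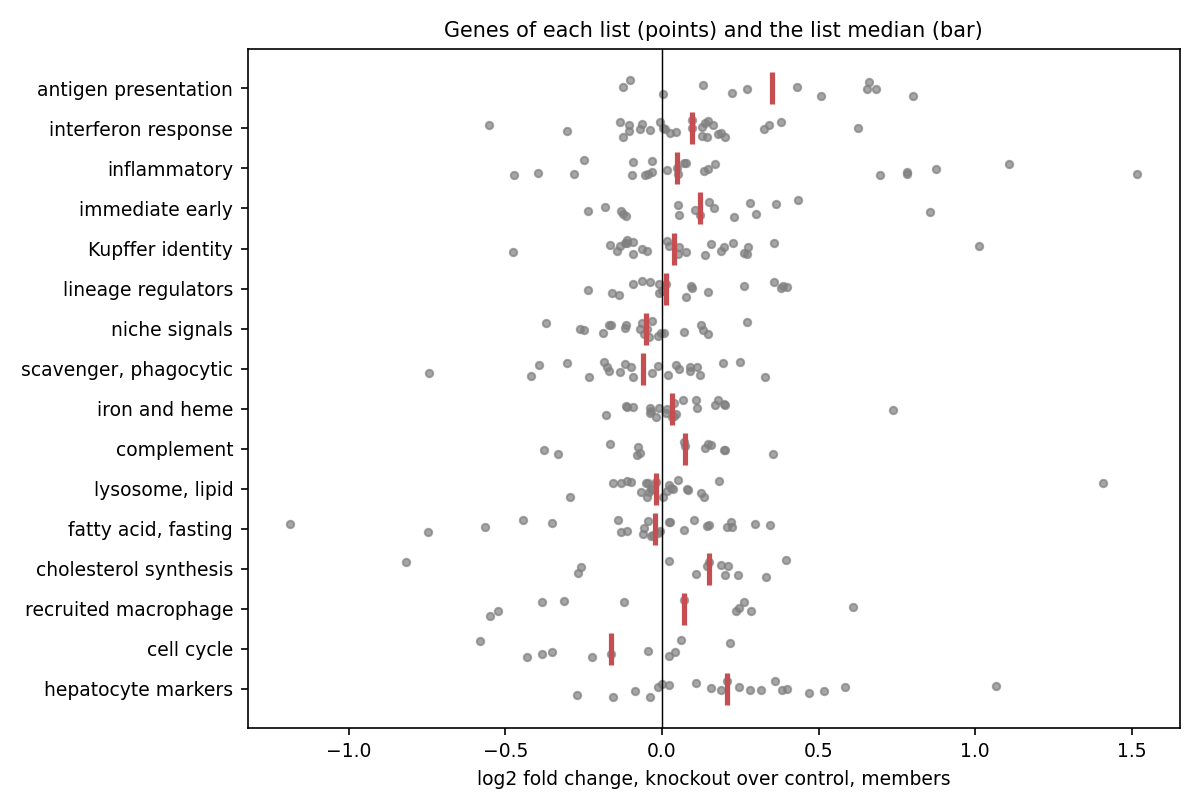
Log2 fold change of knockout over control in member nuclei for the tested genes of 16 lists, 1 grey point per gene, red bars for the list medians and a black line for the median of all 11623 genes. Of the lists shown, antigen presentation has the highest median, 0.35, and no gene shown passed the adjusted threshold.

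Beyond the lists, the genes with the smallest p-values, none passing, were these. Tenm2, a teneurin adhesion protein, stood at 119, 91.7 and 84.0 CPM in knockouts, against 53.7, 49.3 and 55.7 CPM in controls. Flna, which crosslinks actin, stood at 121, 116 and 110.1 CPM in knockouts, against 71.4, 88.0 and 68.0 CPM in controls. Gas5 and Ly6a also lay higher in all 3 knockouts, with log2 fold changes of 0.67 and 1.20.

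Among genes lower in all 3 knockouts, Abcb4, a phospholipid transporter, stood at 44.6, 40 and 44.0 CPM in knockouts, against 62.5, 59.4 and 58.2 CPM in controls. Kcnj10, Alg2 and Dcbld1 had log2 fold changes of -0.83, -0.57 and -0.61, with adjusted p = 0.999 by edgeR for each.

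In the Il1b-side nuclei no gene passed either (0 of 5395, 0% called, and 90 genes or 1.67% with an unadjusted p under 0.05, edgeR). The difference of the knockout effect between members and Il1b-side nuclei was tested in 1 edgeR model as an interaction over 11158 genes. No gene passed (0% called), and 203 genes, 1.82%, had an unadjusted p under 0.05. The smallest p-values belonged to Tox and Rabgap1l, with differences of 7.66 (SE 1.87) and 1.63 (SE 0.43) on the log2 scale and adjusted p-values of 1.00. Tox is on a list of T and NK cell markers. These markers summed to 466 CPM in the 26 Il1b-side nuclei of control 3, and to 17.8 to 135 CPM in the other mice. The part of such cells in this difference was not tested. Knockout 3 held 10 Il1b-side nuclei, and without it the number of calls was 0 as well. It was 1 without knockout 1, 6 without knockout 2 and 14 without control 1.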

How the data were processed

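Nuclei RNA was measured in 6 livers on the 10x Chromium platform (3′ chemistry, version 3.1) according to the labels. The deposited matrices hold UMI counts per gene and barcode for 32285 features, made by the authors with Cell Ranger against mm10. The submitters' processing notes name version 7.0.1 and the file headers 7.1.0. The sources used here do not give the intron and strand settings. Of 27297 barcodes, 26467 passed the filter.

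Counts of member nuclei were summed per mouse and tested with edgeR 4.0.16 (quasi-likelihood, robust, TMM factors, filterByExpr) in R 4.3.3, adjusted by Benjamini-Hochberg over all tested genes at 0.05. DESeq2 1.42.0, other scalings, no filter, other gates and thresholds, scrublet doublet calls (scanpy 1.11.5) and leaving out each mouse were tried. Shares were compared with exact permutation tests (scipy 1.17.1). Members, gene lists and tests were chosen with earlier results of these data known. Genes were named by rank: up to 12 passing genes per direction, or the next 6 by p without group overlap and averaging 10 CPM or more, and per list the 2 with the smallest p and the 2 with the highest CPM. From these the text shows those whose role or value helps describe a list; other genes, such as Cd274, Ciita, C6 and the B cell markers, were added after their values were seen.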

Additional observations from a re-analysis of the deposited data

How the results depend on the processing

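No gene was called in the members with edgeR, DESeq2's size factors, library size alone, a score margin of 3 UMIs, under 0.1% hepatocyte UMIs or without doublet calls. DESeq2's Wald test called 5 genes, edgeR without the filter on low counts 20 (14 higher and 6 lower, of 21945 tested), the gate with endothelial and stellate genes at 0 UMIs 1 (Alb), and leaving out control 1 and knockout 2 together 2 (Mup17 and Mup18). Leaving out each mouse gave 0 to 2 calls, with Mup17 and Mup18 called without control 1. In the Il1b-side nuclei it gave 0 calls each time, an alternative chosen after seeing the data. For the difference between states, leaving out each mouse gave 0 to 14 calls: 1 without knockout 1, 6 without knockout 2 and 14 without control 1. Leaving out control 1 and knockout 2 together gave 4. The cause was not tested. Leaving out each mouse moved the difference in members' share of gated nuclei between -11.6 and 4.06 percentage points, positive without knockout 2 and without control 3 (1.25), and their share of all nuclei between -2.65 and 0.436, positive without knockout 2. The median of the antigen presentation list stayed positive under 15 of 15 alternatives (0.29 to 0.44), and those of the inflammatory, lineage regulator and scavenger lists kept their sign as well. The medians of the other lists kept their sign under 8 to 14 of the 15. Over 91 named genes and 15 alternatives, 19 of 1340 values passed the threshold and 79 had the other sign. No paired analysis was possible because the library numbers in the labels are not replicate numbers within a group. The replicate numbers used here only name the mice of a group in accession order. Member sums of 2149199 UMIs or more limit what can be seen of genes at a few CPM.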
